A study of Homo sapiens with 24 samples.

Results

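The variants described here are single-base changes in 3′ untranslated region (3′ UTR) fragments of MAP kinase pathway genes and of dual-specificity phosphatase genes. They were chosen by gene symbol, as all entries whose symbol begins with MAPK, MAP2K, MAP3K, MAP4K or DUSP. The rule itself uses no measured value, but the genes were picked with earlier results of these data known. It gave 78 of the 13515 variants in the count table, at 66 of 11265 SNPs, in 8 of 1637 genes. With the reference oligos, the group holds 144 of 24780 oligos. In 54 SNPs the reference base was paired with 1 alternative base, and in 12 with 2.

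In this massively parallel reporter assay, each fragment sat in a reporter plasmid with the reference or an alternative base, and the pool was introduced into cells by lipid transfection. Both hosts are established human cell lines: SH-SY5Y, a neuroblastoma line, and a line of microglia made immortal with SV40. Each line gave 6 plasmid DNA and 6 polyadenylated RNA libraries, which the series describes as biological replicates. The labels list no other treatment of either line. The counts come from the reporters, so the identity of the lines was not checked against marker genes. Library totals ran from 11764547 to 19101103 counts in SH-SY5Y and from 7018516 to 17570853 in microglia. The table gives neither the position of a SNP nor the strand of its alleles, so whether fragments of neighbouring SNPs overlap was not tested. The sequences of the fragments were not used here.

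MAP kinase cascades pass a signal along kinases that phosphorylate each other in turn, from a MAP4K or MAP3K to a MAP2K and then to a MAP kinase. Several dual-specificity phosphatases, though not all, remove the activating phosphates from MAP kinases. Some of these are induced by the cascade that they turn off, as DUSP6 is by ERK signalling. The 3′ UTR of an mRNA is where many microRNAs and RNA-binding proteins act on its stability and translation. The reporter reads only the RNA left from a fragment, not the expression or the activity of the named kinase or phosphatase.

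Among the kinase genes, MAPK14 (chromosome 6, 36027808 to 36124214 in GRCh38.p14) encodes the stress kinase p38α and had 14 variants. MAP2K1 (chromosome 15, 66386912 to 66491544) encodes MEK1, a kinase of the ERK cascade, and had 5. MAP2K5 (chromosome 15, 67542703 to 67807114) encodes MEK5, the kinase of ERK5, and had 29 variants at 21 SNPs. MAP4K4 (chromosome 2, 101697707 to 101894690) encodes a kinase upstream of the JNK cascade and had 8. Of the phosphatase genes, DUSP6 (chromosome 12, 89347235 to 89352501), which acts on ERK in the cytoplasm, had 3 variants and DUSP15 (chromosome 20, 31845593 to 31870664) had 4. MAP3K7CL (chromosome 21, 29077114 to 29175887), named for its similarity to part of the kinase MAP3K7, had 5. The coordinates are those of the genes in the annotation.

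The first question was which base changes altered reporter RNA. The allelic effect is the log2 ratio of the alternative to the reference base in RNA, minus the same ratio in plasmid DNA, so that unequal plasmid amounts drop out. A variant was tested where each of its alleles averaged 10 or more DNA counts across the libraries of a line, and was called at an adjusted p under 0.05. In each line 77 of the 78 variants were tested. The one left out was rs73409844 C>T in MAPK14, whose alternative base had no DNA count and whose reference base had a mean of 6.83 DNA counts in SH-SY5Y and 2.17 in microglia. Effects were spread about 0, with 37 variants higher and 40 lower in each line and a median effect of -0.01 in both. Over all variants the median was 0.00 in both lines. The median size was 0.20 in SH-SY5Y against 0.25 over all 13031 variants tested, and 0.17 in microglia, the same as over all 13017.

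By edgeR's quasi-likelihood test with Benjamini-Hochberg adjustment, 1 of 77 variants was called in SH-SY5Y, where 0.399% of all variants were called. In microglia 2 of 77 were called, against 1.74% of all variants. At an unadjusted p under 0.05 the counts were 5 in SH-SY5Y, where the share over all variants was 8.73%, and 6 in microglia, where it was 9.38%. The called variants were rs12900208 C>G of MAP2K5, in both lines, and rs704073 C>T of DUSP6, in microglia.

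The G allele of rs12900208 in the MAP2K5 fragment gave less reporter RNA than the C allele in both cell lines. In SH-SY5Y the G share of the G and C counts was 46.8% at the lowest, 49.3% at the median and 52.0% at the highest of the 6 DNA libraries. In the 6 RNA libraries it was 10.8%, 24.1% and 34.5%. DNA and RNA shares did not overlap. The RNA counts behind them ran from 160 to 467 for G and from 888 to 1568 for C, with medians of 399.5 and 1211.5. The replicate effects ran from -2.99 to -0.88 with a median of -1.61, and all 6 were below 0. The fitted log2 effect was -1.70 ± 0.72 (SD, n = 6), a 3.25-fold lower ratio, with a 95% confidence interval from -2.25 to -1.15 (edgeR adjusted p = 0.00601).

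In microglia the G share was 42.9% at the lowest, 47.8% at the median and 55.8% at the highest in DNA, and 17.4%, 21.6% and 30.0% in RNA. The shares again did not overlap. The RNA counts ran from 142 to 311 for G and from 602 to 890 for C. The replicate effects ran from -2.16 to -1.14 with a median of -1.78. The fitted log2 effect was -1.72 ± 0.40 (SD, n = 6), a 3.30-fold lower ratio, with an interval from -2.05 to -1.40 (edgeR adjusted p = 8.85e-10). The spread between replicates was larger in SH-SY5Y than in microglia, while the fitted effects differed by -0.03 (interval from -0.67 to 0.62, edgeR adjusted p = 0.996 for microglia minus SH-SY5Y). That interval allows a difference of up to 0.67 on the log2 scale.

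The same MAP2K5 fragment was also carried with an A at this SNP, and the A allele did not separate from C. The A share of the A and C counts had a median of 66.2% in DNA and 66.6% in RNA in SH-SY5Y, and of 65.3% and 67.2% in microglia. The log2 effect of C>A was -0.01 ± 0.40 (SD, n = 6) in SH-SY5Y, with an interval from -0.35 to 0.32 (edgeR adjusted p = 0.993). In microglia it was 0.07 ± 0.15 (SD, n = 6), with an interval from -0.14 to 0.29 (edgeR adjusted p = 0.907). The intervals hold changes of up to 0.35 and 0.29 in size, and neither overlaps the interval of C>G in its line.

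Since C is shared by both contrasts, G was also set directly against A, which needs no count of the reference oligo. This contrast, like the G oligo ratios below, uses the same G counts as C>G. It was added after the values were seen and is no separate evidence for a low G oligo. The log2 effect of G over A was -1.69 in SH-SY5Y (interval from -2.07 to -1.32, edgeR adjusted p = 2.93e-05) and -1.79 in microglia (interval from -2.04 to -1.55, edgeR adjusted p = 5.49e-13). Among the 12 such pairs of alternative bases in these genes, it was the one that was called in each line. Of all pairs tested, 0.421% were called in SH-SY5Y (10 of 2378) and 1.26% in microglia (30 of 2376). The log2 RNA to DNA ratio of the C oligo, scaled to a typical oligo at 0, was 0.16 in SH-SY5Y and -0.08 in microglia, and that of the A oligo was 0.17 and -0.01. The G oligo stood at -1.48 and -1.79, higher than 1.90% and 1.76% of the alternative oligos tested. The 3 oligos of 1 SNP thus fell into a pair near the typical level and 1 oligo well under it.

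The other 28 MAP2K5 variants gave no call in either line. Their effects ran from -1.96 to 1.15 in SH-SY5Y, with 10 higher and 18 lower, and from -0.70 to 0.58 in microglia, with 15 higher and 13 lower. The median size was 0.15 in SH-SY5Y and 0.17 in microglia. The 95% interval lay wholly within 1 log2 unit of 0 for 14 of the 28 in SH-SY5Y and for 17 in microglia, and for the rest it reached past 1 unit. Both ends of the SH-SY5Y range were alleles with few plasmid counts. The A>T change of rs7163462 had 80.7 mean DNA counts for T and an effect of -1.96 ± 2.14 (SD, n = 6; edgeR adjusted p = 0.538), against -0.45 ± 1.03 in microglia. The A>G change at that SNP gave 0.27 and 0.17. At rs17242605 A>G the effects were 1.15 ± 1.83 and 0.58 ± 1.69, with 83.2 and 81.7 mean DNA counts for G.

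In microglia, rs12441512 C>T of MAP2K5 had an effect of -0.70 ± 0.25 (SD, n = 6), lower in 6 of 6 replicates, which did not pass the adjusted test (edgeR adjusted p = 0.527). Its SH-SY5Y value was 0.16 ± 2.15, with replicates on both sides of 0. In SH-SY5Y, rs11857017 A>G was below 0 in 6 of 6 replicates at -0.39 ± 0.37, and its microglia effect was -0.16 ± 0.15. The A>T change there gave -0.09 and -0.17. Here and below, a shared sign in 6 of 6 replicates is a description and was not tested. The 6 values share the same DNA mean, and the share of 6 of 6 over all variants was not counted. The MAP2K5 SNPs rs57101762, rs58554961 and rs41305272, each with over 300 mean DNA counts for either allele, had effects of -0.03, -0.17 and -0.27 in SH-SY5Y and of 0.20, 0.15 and -0.20 in microglia.

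In DUSP6, which encodes a phosphatase of ERK, the T allele of rs704073 gave more reporter RNA than the C allele in microglia. The T share of DNA counts was 47.5% at the lowest, 66.1% at the median and 80.8% at the highest. The T share of RNA counts was 78.4%, 89.0% and 91.6%. The 2 sets of shares overlapped at their edge. The RNA counts of C ran from 12 to 72 with a median of 28, and those of T from 108 to 302 with a median of 244. The replicate effects ran from 0.92 to 2.49 with a median of 2.05, all above 0. Each sets 1 RNA library against the same mean DNA ratio, so their range and SD leave out the wide spread of the DNA shares. The fitted log2 effect was 1.83 ± 0.68 (SD, n = 6), a 3.56-fold higher ratio, with an interval from 1.06 to 2.60 (edgeR adjusted p = 0.00284). The call rests on the C allele, which had 146.5 mean DNA counts and 220 RNA counts in all 6 libraries. It was not among the variants left when 200 mean DNA counts were required.

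In SH-SY5Y the same change gave a mean of the same sign with a far wider spread. The T share was 62.6% at the lowest, 64.9% at the median and 69.6% at the highest in DNA, and 59.6%, 89.9% and 98.9% in RNA. The RNA counts of C ran from 6 to 137. The replicate effects ran from -0.37 to 5.42 with a median of 2.71, and 5 of 6 were above 0. The fitted effect was 2.52 ± 2.30 (SD, n = 6), with an interval from 0.76 to 4.29, and did not pass the adjusted test (edgeR adjusted p = 0.314). It passed with DESeq2 (adjusted p = 0.0165), which called 350 of all 13031 variants in this line, against 52 with edgeR. The difference between lines was -0.61, with an interval from -2.48 to 1.25 (edgeR adjusted p = 0.972).

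The RNA to DNA ratio of the C oligo was -1.26 in microglia and -1.52 in SH-SY5Y on the log2 scale, and that of the T oligo was 0.44 and 0.25. The T oligo was not called in either line (edgeR adjusted p = 0.117 in microglia and 0.564 in SH-SY5Y). The C oligo was called low in microglia (edgeR adjusted p = 0.00411) and not in SH-SY5Y (edgeR adjusted p = 0.166; with the replicate number as a block -2.38, adjusted p = 0.0457). These ratios use the same C counts as the allelic effect and are no separate evidence for it. The other DUSP6 variants were not called. The A>G change of rs704074 had an effect of 0.36 ± 0.68 in SH-SY5Y and 0.33 ± 0.47 in microglia, and rs10744 A>T had -0.04 ± 0.73 and -0.01 ± 0.81.

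The second question was how much RNA the fragments gave at all. Activity here is log2 of RNA over DNA for a reference oligo, scaled so that a typical oligo of the pool is near 0. It was tested for 65 of the 66 reference oligos. The median activity was 0.03 in SH-SY5Y and 0.04 in microglia, against 0.05 and 0.02 over all oligos. By edgeR, 2 of 65 were called in SH-SY5Y (1 higher and 1 lower), where 8.72% of all reference oligos were called (4.19% higher, 4.53% lower). In microglia 9 of 65 were called (4 higher and 5 lower), against 20.8% (8.46% higher, 12.3% lower). With total counts in place of TMM scaling, 34.0% of all called oligos were higher in SH-SY5Y rather than 48.1%.

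The DUSP15 fragment with rs76833217 was low with either base. In microglia the C oligo had replicate activities from -1.28 to -0.79 with a median of -1.08. The fitted value was -1.09 ± 0.19 (SD, n = 6), a 2.13-fold lower ratio (edgeR adjusted p = 2.1e-12). The T oligo, whose counts are separate, had -1.09 (edgeR adjusted p = 2.75e-13). In SH-SY5Y the C oligo ran from -0.77 to 0.00 with a median of -0.52 and was fitted at -0.45 ± 0.28 (edgeR adjusted p = 0.0217), and the T oligo at -0.69 (edgeR adjusted p = 0.000199). The call of the C oligo in SH-SY5Y was lost without replicate 1, 3, 4, 5 or 6 in turn, with values from -0.56 to -0.38 over the 6 fits and adjusted p up to 0.0783. The base itself gave no call: C>T had an effect of 0.00 in microglia (interval from -0.26 to 0.26) and -0.22 ± 0.35 in SH-SY5Y.

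This DUSP15 C oligo was the one reference oligo of the 65 whose activity differed between the lines, where 0.986% of all oligos were called. Of those, 21.3% were higher in microglia, or 41.7% of the calls with total counts in place of TMM. Its activity in microglia minus that in SH-SY5Y was -0.66 on the log2 scale (interval from -0.99 to -0.34, edgeR adjusted p = 0.0295). The highest microglia replicate, at -0.79, lay just below the lowest SH-SY5Y replicate, at -0.77. The call did not hold without replicate 1 (-0.62, adjusted p = 0.144), replicate 2 (-0.54, adjusted p = 0.144) or replicate 5 (-0.59, adjusted p = 0.137) in edgeR. It was also lost with total counts (-0.58, adjusted p = 0.0969) and with the replicate number as a block (-0.64, adjusted p = 0.0825). The T oligo of the SNP differed by -0.42 (edgeR adjusted p = 0.136). A second DUSP15 fragment, that of rs6060994 with G, lay above the typical oligo in microglia at 0.24 (edgeR adjusted p = 0.021), a call that was lost without replicate 1 (0.19), 3 (0.24) or 5 (0.22). DUSP15 thus had fragments on either side of the typical oligo.

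Of the MAPK14 fragments, that of rs3804453 was high in both lines. The A oligo had replicate activities from 0.32 to 0.55 with a median of 0.42 in SH-SY5Y, and from 0.26 to 0.61 with a median of 0.44 in microglia. No replicate was at or below 0. The fitted values were 0.44 ± 0.09 (edgeR adjusted p = 0.000649) and 0.43 ± 0.15 (edgeR adjusted p = 5.45e-06), each 1.35-fold above the typical oligo. The G oligo of that SNP stood at 0.27 (edgeR adjusted p = 0.202) and 0.25 (edgeR adjusted p = 0.0132). The A>G change gave -0.20 ± 0.38 and -0.16 ± 0.15, and neither was called.

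In microglia 3 more MAPK14 reference oligos were called. The T oligo of rs2859144 was low at -0.31 ± 0.22, and its call was lost without replicate 4 (-0.23, edgeR adjusted p = 0.0804). The C oligo of the same SNP was also low at -0.32 (edgeR adjusted p = 0.0149), while the G oligo stood at 0.07. The T>G effect was 0.39 ± 0.28 (SD, n = 6), higher in 6 of 6 replicates, and was not called (edgeR adjusted p = 0.261). It uses the same T counts as the activity of the T oligo. The T>C effect was 0.00 ± 0.25, and in SH-SY5Y the values were 0.11 ± 0.52 and -0.10 ± 0.62. The C oligos of rs61764196 and rs6457878 were high at 0.22 and 0.24. Those 2 calls were lost without several single replicates, down to 0.17 without replicate 1 for the former (also lost without replicate 4, 0.20) and to 0.20 without replicate 6 for the latter (also without replicate 1, 0.26, replicate 3, 0.23, and replicate 5, 0.22). For rs61764196 C>G the microglia effect was -0.20 ± 0.16, below 0 in 6 of 6 replicates (edgeR adjusted p = 0.437).

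The upstream kinase MAP4K4 had 2 variants with effects above 0 in 6 of 6 SH-SY5Y replicates, neither of which passed the adjusted test. For each variant the 6 values share the same DNA mean, so their agreement in sign is no test. At rs73945512 A>G the G share was 35.0% at the lowest, 37.9% at the median and 41.8% at the highest in DNA, and 43.0%, 53.3% and 68.1% in RNA, with no overlap. The effect was 0.95 ± 0.61 (SD, n = 6; edgeR adjusted p = 0.247). DESeq2 called it (adjusted p = 0.0256), as 1 of 350 calls over all variants in SH-SY5Y, against 52 with edgeR. In microglia the shares overlapped and the effect was -0.32 ± 0.52. At rs76489008 T>C the C share was between 65.8% and 73.4% in DNA and between 74.2% and 94.7% in RNA, and the effect was 1.27 ± 0.96 (edgeR adjusted p = 0.335), against 0.22 ± 0.39 in microglia.

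By edgeR, MAP2K1 and MAP3K7CL had no called variant and no called reference oligo in either line, and none of their variants had an unadjusted p under 0.05. The 5 MAP2K1 variants ran from -0.67 to 0.94 in SH-SY5Y and from -0.28 to 0.11 in microglia. The G oligo of rs8684 in MAP2K1 had the highest fitted activity of the 65 reference oligos in microglia, 0.57 with replicates from 0.41 to 0.79 (edgeR adjusted p = 0.0838), and stood at -0.41 in SH-SY5Y with replicates from -3.73 to 0.34. The 5 MAP3K7CL variants ran from -0.87 to 0.00 in SH-SY5Y and from -0.14 to 0.07 in microglia. The T oligo of rs8130323 in MAP3K7CL had -0.37 in SH-SY5Y and -0.58 in microglia, and the C oligo -1.01 and -0.66. Of these the C oligo in microglia was called (edgeR adjusted p = 0.0396), and DESeq2 also called the T oligo there (adjusted p = 0.0484). Of all 77 alternative oligos tested in these genes, 2 were called in SH-SY5Y, against 9.34% of all alternative oligos, and 5 in microglia, against 21.4%.

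The third question was whether a base change acted differently in the 2 lines. By edgeR, 0 of 77 variants were called for the difference of allelic effects, where 0.0462% of all variants were (6 of 12989). The counts with DESeq2 and limma were also 0, and 3 variants had an unadjusted edgeR p under 0.05, against 5.67% of all variants. The smallest of these p-values belonged to rs73945512 A>G of MAP4K4, which was 0.95 in SH-SY5Y and -0.32 in microglia, a difference of -1.27 (interval from -2.09 to -0.46, edgeR adjusted p = 0.533). Another was rs6060994 G>A of DUSP15, at 0.15 and -0.18 (edgeR adjusted p = 0.854). Over the 77 variants the effects in the 2 lines had a Pearson correlation of 0.51 and a Spearman correlation of 0.24, and 45 had the same sign. Without the 2 called variants the values were 0.21 and 0.18 over 75. These are descriptions across variants that share libraries, and several share a reference oligo. Libraries of the 2 lines with the same replicate number also deviated together: the correlation of their deviations from the group means, over 22127 oligos, was 0.0579 to 0.0931 for RNA and 0.0312 to 0.0683 for DNA, and each of 6 was best with its own number. Read as shared reads, this amounts to 2.04% to 2.59% of the SH-SY5Y RNA counts and 5.24% to 13.5% of the DNA counts appearing in microglia. With these subtracted, the microglia effects were -1.73 for MAP2K5 rs12900208 C>G (edgeR adjusted p = 6.44e-08) and 1.84 for DUSP6 rs704073 C>T (edgeR adjusted p = 0.0224). The direction from SH-SY5Y to microglia was assumed. Microglia reads in SH-SY5Y were not estimated or subtracted, so the SH-SY5Y calls had no such check. Whether reads were shared was not tested otherwise.

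The size of an effect went with plasmid depth in both lines. Where the rarer allele had under 100 mean DNA counts, the median replicate SD was 2.15 in SH-SY5Y (9 variants) and 1.11 in microglia (10 variants). Where it had at least 100, the median SD was 0.80 (68 variants) and 0.34 (67 variants). The median size of the effect was 1.09 and 0.44 in the former and 0.19 and 0.16 in the latter. The directions were also counted by base composition. Of 23 changes that gained a G or C, 11 were higher and 12 lower in each line, and of 39 that lost one, 20 were higher and 19 lower. Of the 15 that did neither, 6 were higher and 9 lower in each line. Over all variants in microglia, 2244 of 4454 gains, 2989 of 6061 losses and 1255 of 2502 others were higher.

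Other genes of these pathways were taken from a list of 125 adaptors, receptors, kinases, inhibitors and transcription factors. The table held 11 of them with 106 variants. By edgeR, 1 of 104 tested variants was called in SH-SY5Y (against the 0.399% over all variants) and 2 of 103 in microglia (against 1.74%). Their median effects were 0.03 and 0.05, where those over all variants were 0.00. The SH-SY5Y call was rs112191911 G>A of GAB2, a docking protein of receptor tyrosine kinases, at 1.00 (edgeR adjusted p = 0.00474). The microglia calls were rs114625088 C>T of SPRED2, an inhibitor of Ras to ERK signalling, at 1.01 (edgeR adjusted p = 7.43e-06), and rs711 A>C of ETS2, a transcription factor that ERK phosphorylates, at -0.93 (edgeR adjusted p = 2.13e-05). For the difference between lines, 0 of 103 variants of the listed genes were called, against 0.0462% of all variants. The SPRED2 C oligo, whose counts enter the effect of 1.01, was itself called low. It stood at -0.47 in SH-SY5Y (edgeR adjusted p = 0.0124) and -0.79 in microglia (edgeR adjusted p = 1.20e-07). Of the reference oligos of the listed genes, 11 of 86 were called for activity in SH-SY5Y (5 higher, 6 lower), against 8.72% of all reference oligos. In microglia 21 of 85 were called (7 higher, 14 lower), against 20.8%.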

How the data were processed

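The deposited table holds raw counts per variant and allele in 24 libraries. The submitters' processing notes name build hg38 and, with no order or role, SAMtools 1.10, Bowtie2, UMI-tools 1.0.0 and cutadapt 2.7. Per the labels' protocols, RNA carried a unique molecular identifier. The sources used here do not say whether DNA counts were collapsed. Alleles differ by 1 base, so a read error there could move a count between them.

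Counts were tested with edgeR 4.0.16 (R 4.3.3; quasi-likelihood F test), with the library as a block for allelic effects and TMM over all oligos for activity. P-values were adjusted over all variants or oligos tested (threshold 0.05). Each ± is the SD over 6 RNA replicates of log2 ratios taken against the mean DNA ratio (pseudocount 0.5). The replicate effects and activities are taken the same way, so the 6 share the same DNA mean and leave out DNA spread. Alternatives were DESeq2 1.42.0, limma 3.58.1, other scalings and filters, a replicate block, leaving out each replicate, and subtraction of reads shared between lines. The last, the G over A type of contrast and the alternative oligo activities were added after seeing the data. The code was tested on simulated data, drawn with the same dispersion for every oligo, so that test gives no error rate for these data. Gene positions are from RefSeq (GRCh38.p14).

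The members and lists were chosen with earlier results of these data known, so the MAP2K5 and DUSP6 effects are no independent finding. Named were all called variants, others with unadjusted p under 0.05, the 3 smallest p between lines, and the oligos called or at the ends of the activity range. The other variants of MAP2K5 and the uncalled oligos at those ends, which the rule also covers, are given in part as ranges. Counts over the group cover all its genes, but some items are not reported here by name.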

Additional observations from a re-analysis of the deposited data

Results flagged for a closer look

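In 3 of the 40 allelic effects and activities checked, 1 of the 6 replicates stood far from the others (a gap over 0.625 of the whole range). All 3 were activities. For normally distributed values that were not selected, chance gives about 1 in 20. The values checked were selected from these data by size or p-value, so that rate is no benchmark for them. In SH-SY5Y, replicate 2 of the MAP4K4 rs12622613 A oligo was at -3.91, with the others between -1.04 and 0.432. Replicate 3 of the MAPK14 rs76171341 T oligo was at -3.69, with the others between -0.985 and 0.325. Neither oligo was called by edgeR. In microglia, replicate 6 of the DUSP15 rs6060994 G oligo was at -0.0714, with the others between 0.235 and 0.367. The DUSP15 rs76833217 C oligo differed in activity between lines by -0.664 (microglia minus SH-SY5Y).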

How the results depend on the processing

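The MAP2K5 rs12900208 C>G call held in each alternative in both lines, with effects from -1.90 to -1.43 in SH-SY5Y (adjusted p from 1.57e-08 to 0.0387) and from -1.81 to -1.64 in microglia. The DUSP6 rs704073 call in microglia held in each alternative in which it was tested, with effects from 1.60 to 2.03 (adjusted p from 0.000138 to 0.0445). Allelic calls numbered 3 in SH-SY5Y with DESeq2, where calls over all variants went from 52 to 350 of 13031, and 1 in microglia with at least 200 DNA counts (260 of 9956 over all), which leaves DUSP6 rs704073 untested. Activity calls in SH-SY5Y numbered 4 with DESeq2 (1651 of 10973 over all oligos, against 957 in edgeR) and 1 to 2 without single replicates (709 to 814 over all). The activity difference had 0 calls with total counts (60 over all oligos, against 108 with TMM), 0 with the replicate block and 0 to 1 without single replicates (49 to 94 over all). With reads shared with SH-SY5Y subtracted, 6 of the 9 microglia activity calls remained (2001 of 10957 over all oligos, against 2279 of 10966). MAPK14 rs61764196 C, at 0.21, and MAPK14 rs6457878 C, at 0.26, were among those lost. The difference between lines of MAP2K5 rs12900208 C>G changed sign, from -0.37 to 0.25 without single replicates (0.15 without replicate 4 and 0.25 without replicate 6), and was not called in any of these. The causes were not tested.

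With the replicate block, allelic calls numbered 1 in SH-SY5Y, 2 in microglia and 0 for the difference, and activity calls 3, 9 and 0. Over all variants or oligos these calls were 36, 245 and 3, and 822, 2318 and 65. Same-numbered DNA and RNA libraries correlated in their deviations from the group means by 0.0209 to 0.0603 in SH-SY5Y and 0.0174 to 0.0535 in microglia, with each of the 6 best with its own number. That is a hint from the data, and the numbers were not taken to pair the libraries. The median replicate SD of variants whose rarer allele had under 100 DNA counts was 2.15 in SH-SY5Y and 1.11 in microglia.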
